A study of Mus musculus with 2 samples.

Results

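Heat shock proteins and their co-chaperones were followed in single cells taken from the lamina propria of the mouse colon, the layer of tissue that lies below the epithelium and holds its immune cells. The 37 genes were taken by symbol from the 32285 genes of both count matrices, and all 37 were present. By the place where their proteins work, 25 were cytosolic, 7 belonged to the endoplasmic reticulum (ER), 4 were mitochondrial and 1, Hsf1, was a transcription factor. Hspa1a and Hspa1b were summed and are called the Hspa1a/b pair, which leaves 36 units.

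The data came from 2 libraries, titled Runx3_fl and Runx3, with 1 library per group and therefore no replicate. The study set animals whose Runx3 gene was removed by Cre under the myeloid Lyz2 promoter beside floxed littermates, and its legends describe pooled males of equal age in both arms. Each library thus mixed several animals that cannot be told apart. Neither title names Cre, so a genotype was given to neither library, and both are called by their titles. The labels give the cells as CD11b-positive, yet a unique molecular identifier (UMI, a tag that counts 1 captured RNA molecule once) of Itgam, the CD11b gene, was found in only 44.6% of the kept cells of Runx3_fl (95% Clopper-Pearson interval 43.7% to 45.5%) and 38.2% of those of Runx3 (37.1% to 39.2%), and lymphocytes were plentiful.

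Cells were kept with 200 to 6000 genes and at most 15% mitochondrial UMIs, which left 11885 of 12968 barcodes in Runx3_fl and 8167 of 8953 in Runx3. Median depth was 9573 and 5731 UMIs per kept cell, and 37 barcodes occurred in both libraries. Runx3 RNA in the macrophage class stood at 157 CPM (UMIs of the gene scaled to 1000000 UMIs of the class) in Runx3_fl and 245 in the library labelled Runx3, so it was not lower there. Xist, the RNA of the inactive X chromosome of females, stood at 109 to 343 CPM in the 7 classes of Runx3_fl and had 0 to 3 UMIs per class in Runx3, although both arms are described as male. The libraries therefore differed in more than the named genotype, and strain, sex, handling and genotype cannot be told apart.

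Cells were placed in 7 classes by the RNA they held. The gates were Csf1r with C1qa for macrophages, Flt3 for conventional dendritic cells (cDC), Csf3r for neutrophils, Ncr1 for NK cells, Cd3e for T cells, Cd79a for B cells, and Mzb1 with at least 10 Jchain UMIs for plasma cells. A cell had to meet 1 gate alone, except that a plasma cell could also meet the B gate. In Runx3_fl these classes held 253 macrophages, 905 cDC, 1378 Csf3r cells, 1293 NK, 2832 T, 152 B and 236 plasma cells, and in Runx3 they held 276, 454, 1445, 101, 389, 1182 and 88. All of the 6 to 8 markers fixed for a class reached 10 CPM in that class in both libraries. The gate genes are among these markers, so that part was fixed by the gates. Reaching 10 CPM does not by itself set a class apart. In Runx3 all 8 macrophage markers also reached it in Csf3r cells, and 7 of 8 did in T cells and in B cells. In Runx3_fl 7, 1 and 3 of the 8 did. The Csf3r gate did not isolate neutrophils: 694 of its cells in Runx3_fl and 725 in Runx3 held Csf1r, and the antigen presentation gene H2-Aa stood at 3142 and 1915 CPM. It is called the Csf3r class below.

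Chaperones bind unfolded stretches of other proteins and keep them from clumping. HSP70 proteins hold and release a client in a cycle of ATP use, J-proteins (HSP40) bring the client and start the cycle, and nucleotide exchange factors such as the HSP110 and BAG proteins end it, while HSP90 finishes the folding of kinases and receptors. Under heat, oxidation or other damage the factor HSF1 leaves its chaperone partners, binds heat shock elements in DNA and switches on the inducible HSP70 genes first of all. The ER and the mitochondrion keep their own sets, and the ER set is abundant in cells that secrete much protein, such as plasma cells. The release of tissue immune cells by enzymes and warming is itself known to induce heat shock and immediate early genes.

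The inducible HSP70 genes, Hspa1a and Hspa1b, gave the largest library difference of all members in each of the 7 classes. Hspa1a (ENSMUSG00000091971) lies on chromosome 17 at 34969190 to 34972156 and Hspa1b (ENSMUSG00000090877) at 34956436 to 34959238 in GRCm38, both on the minus strand, each with 1 exon. The coding sequences were identical at 99.4% of aligned positions and the untranslated 3′ ends, which 3′ libraries read, at 46.9%, so some reads could be told apart and others not. The upstream sequences are shown because both copies differed alike between the libraries: 247 of the 250 bases before the RefSeq start sites were identical (GRCm38.p6, minus strand, chr17:34972157-34972406 and chr17:34959239-34959488). Capitals mark GAA, any 2 bases and TTC, a pair of inverted units of the heat shock element, at bases -104 to -97 from the start site.

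Hspa1a: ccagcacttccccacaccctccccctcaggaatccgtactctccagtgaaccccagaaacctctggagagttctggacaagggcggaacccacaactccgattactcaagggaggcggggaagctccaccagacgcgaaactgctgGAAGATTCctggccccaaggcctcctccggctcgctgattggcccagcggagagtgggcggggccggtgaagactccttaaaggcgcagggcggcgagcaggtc
Hspa1b: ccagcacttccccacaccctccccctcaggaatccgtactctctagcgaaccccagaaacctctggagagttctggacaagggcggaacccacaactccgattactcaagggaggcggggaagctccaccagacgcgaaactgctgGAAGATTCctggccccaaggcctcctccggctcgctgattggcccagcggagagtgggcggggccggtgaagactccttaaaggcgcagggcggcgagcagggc

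In T cells the Hspa1a/b pair stood at 62.6 CPM in Runx3_fl (exact 95% Poisson interval 60.2 to 65.1) and at 1473 CPM in Runx3 (1431 to 1515). The log2 ratio, here always of CPM plus 1 in Runx3 over Runx3_fl, was 4.53 (counting interval 4.49 to 4.63). Plasma cells followed, with 66.8 CPM (60.4 to 73.7) against 1476 (1415 to 1538) and a log2 ratio of 4.45 (4.31 to 4.62). These were the classes with the lowest starting levels, along with NK cells. NK cells went from 67.2 CPM (62.5 to 72.2) in Runx3_fl to 726 (675 to 779) in Runx3, a log2 ratio of 3.41. All intervals cover counting error only, and the difference between libraries has no replicate check.

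Myeloid cells and B cells started higher and differed less. B cells stood at 123 CPM (103 to 146) in Runx3_fl and 908 (886 to 930) in Runx3, a log2 ratio of 2.88 (2.64 to 3.15). Macrophages stood at 292 CPM (273 to 311) and 2055 (1995 to 2115), a log2 ratio of 2.81 (2.71 to 2.92). Of the 719 and 1083 kept cells that met the macrophage gate, 368 and 672 also met the Csf3r gate and were left out. With cells added that met the Csf3r gate but no further gate, 518 and 723 cells in all, the ratio was 3.22. That choice was made after the data were seen. The highest levels in both libraries were those of cDC, with 534 CPM (522 to 546) in Runx3_fl and 3384 (3336 to 3433) in Runx3 and a log2 ratio of 2.66 (2.63 to 2.70). The Csf3r class, at 377 CPM (366 to 389) and 2271 (2243 to 2299), had the smallest ratio, 2.59 (2.54 to 2.64). In Runx3_fl the order from the top was cDC, Csf3r class, macrophages and B cells, and the Poisson intervals of plasma, NK and T cells, the 3 lowest, overlapped. In Runx3 the order was cDC, Csf3r class, macrophages, plasma and T cells, B cells and NK cells, and the intervals of plasma and T cells overlapped.

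Each copy gave the same picture on its own. Hspa1a went from 34.7 to 712 CPM in T cells and from 307 to 1920 in cDC, and Hspa1b from 27.9 to 760 and from 227 to 1464. Over the 7 classes the log2 ratio of Hspa1a was 2.47 to 4.45 and that of Hspa1b 2.69 to 4.72. Of the 5395 genes that passed the level filter in every class, 13 were at least 2-fold higher in Runx3 in all 7, a background of 0.241%, and Hspa1a and Hspa1b were among them. So were the neutrophil genes Ngp, S100a8 and S100a9 and the antibody genes Igha and Jchain. The filter asked for a mean of at least 10 CPM over the libraries and at least 20 UMIs in all.

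**Figure D1:**
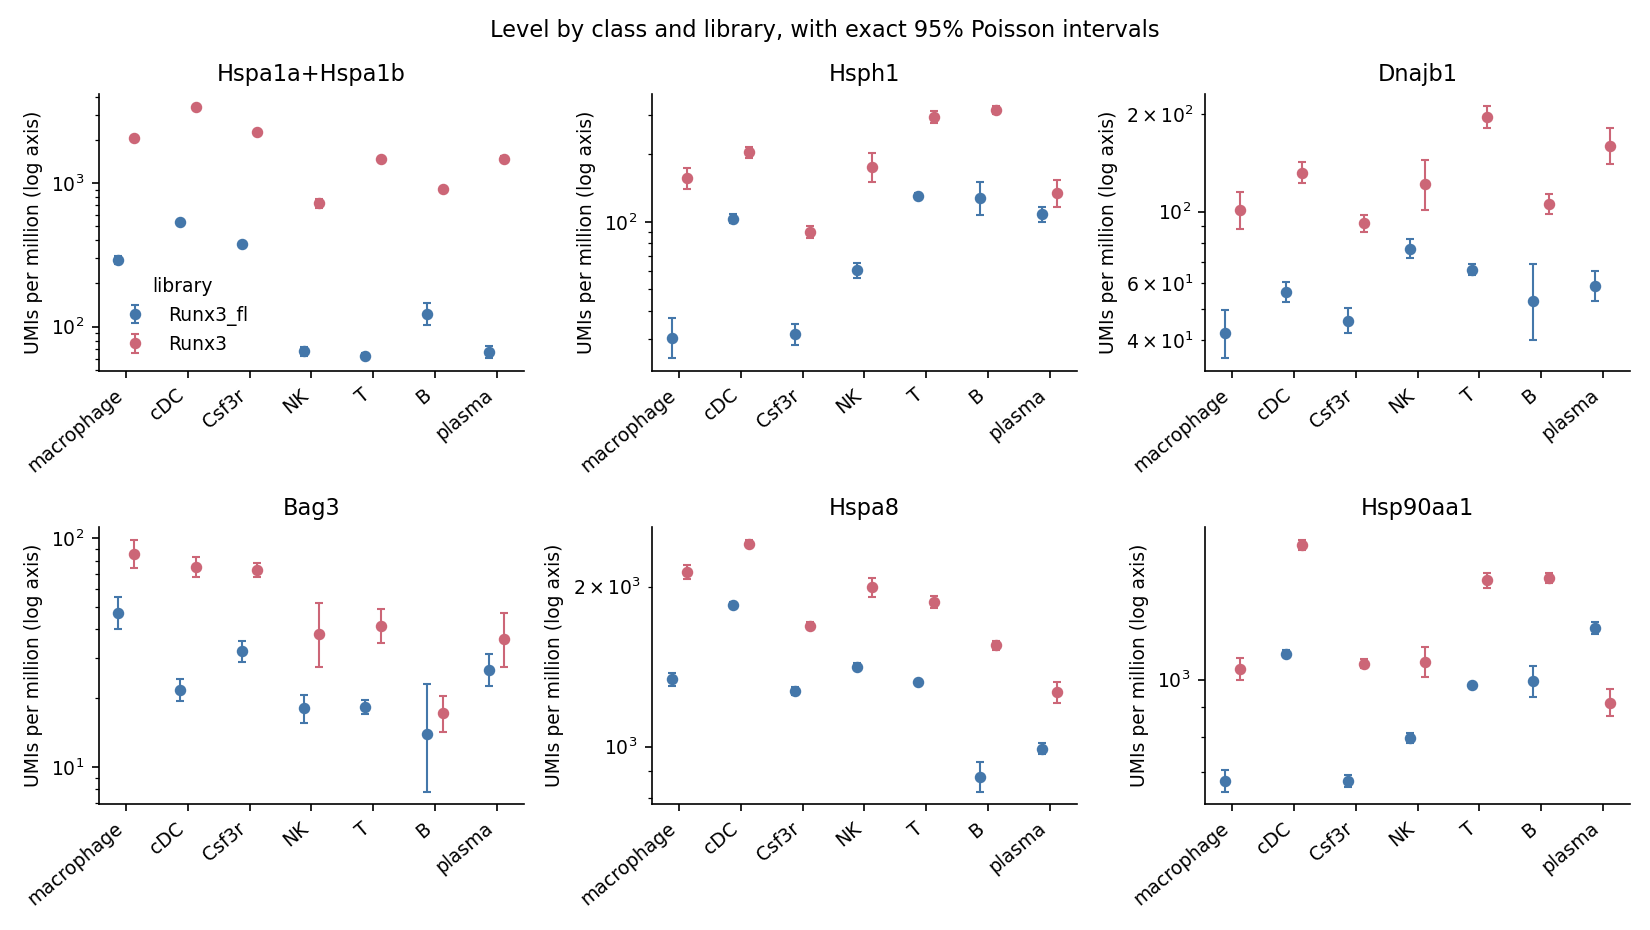
Levels of the Hspa1a/b pair and 5 other cytosolic members in CPM (log axis, range set per panel) for each class in both libraries, with exact 95% Poisson intervals. The pair was higher in Runx3 in all 7 classes, from 62.6 to 1473 CPM in T cells and from 534 to 3384 in cDC, while Hsp90aa1 in plasma cells stood at 1220 CPM in Runx3_fl and 914 in Runx3, a direction that turned with the denominator or the plasma gate.

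More cells of every class held the pair in Runx3. For this count each cell was thinned to 2000 UMIs, because depth differed, and shallower cells were left out (4 to 108 per class in Runx3_fl and 2 to 266 in Runx3). In T cells 7.70% of cells (Clopper-Pearson 6.75% to 8.75%) held a UMI of the pair in Runx3_fl and 51.3% (46.0% to 56.5%) in Runx3, against 22.4% and 76.1% without thinning. In macrophages the thinned shares were 25.5% (20.2% to 31.4%) and 71.2% (64.9% to 77.0%), and in cDC 31.3% (28.2% to 34.4%) and 66.7% (61.9% to 71.2%). NK cells had the smallest gap, from 6.59% to 40.4%, which is 33.8 percentage points.

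The UMIs were spread unevenly over cells. In T cells of Runx3 the thinned mean was 3.21 UMIs of the pair per cell, 18.7% of cells held 5 or more, and the 10% of cells with most held 62.9% of them. In T cells of Runx3_fl the mean was 0.127 and 0.213% of cells held 5 or more. In cDC of Runx3 the mean was 6.55 UMIs, 34.0% of cells held 5 or more, and the top 10% held 52.1%. In no class of Runx3_fl did over 6.64% of cells reach 5 UMIs, and in Runx3 8.08% (NK cells) to 34.0% (cDC) did.

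**Figure D2:**
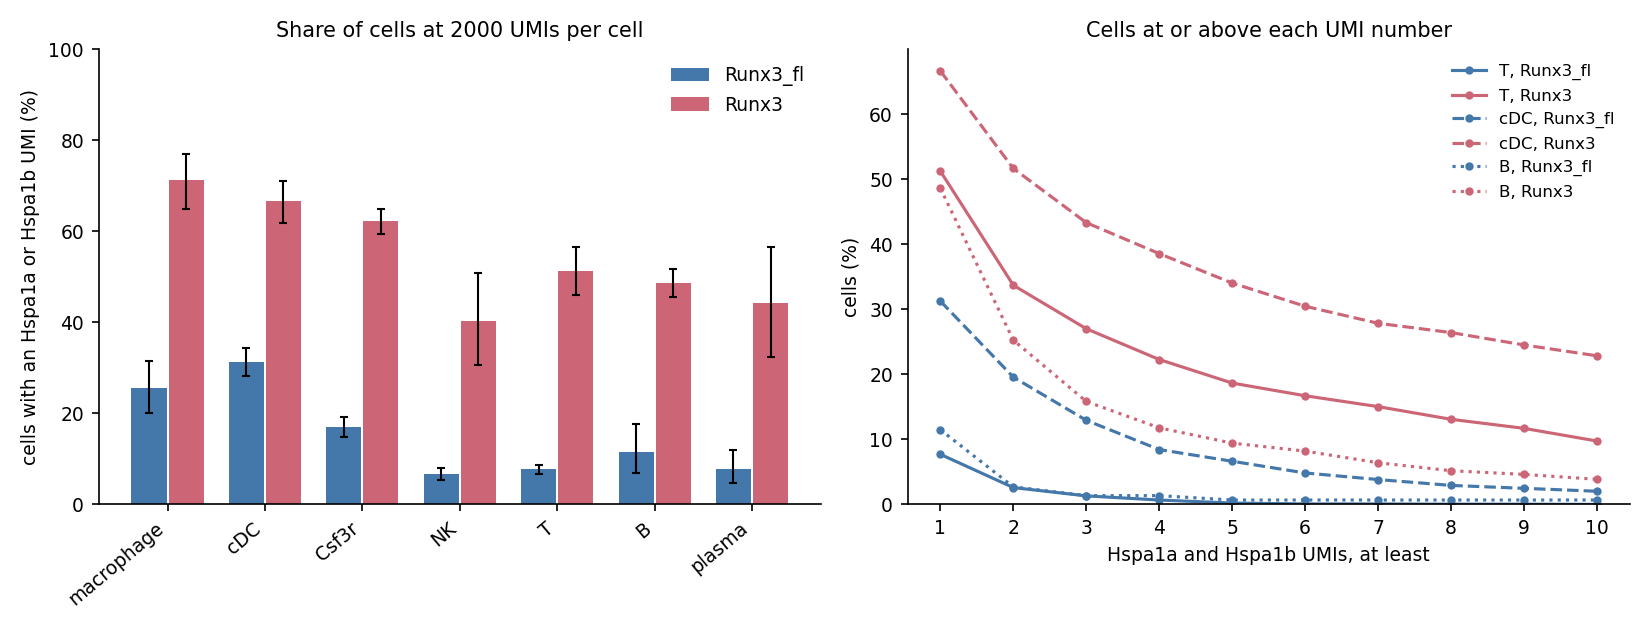
Left, share of cells (%) with an Hspa1a or Hspa1b UMI by class and library after thinning to 2000 UMIs per cell, with 95% Clopper-Pearson intervals; right, share of T, cDC and B cells (%) at or above each number of UMIs. In every class the interval of Runx3 lies above that of Runx3_fl, as in T cells with 7.70% against 51.3%.

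RNA set free from broken cells can enter any droplet, and neutrophil RNA served as a gauge of it, since no class here is known to lack Hspa1a. S100a8, a neutrophil gene, stood at 4.21 CPM in T cells of Runx3_fl and at 120 CPM in those of Runx3, and 3.18% and 51.2% of these cells (median depth 12714 and 7261 UMIs, not thinned) held a UMI of it. Outside the Csf3r class the summed level of the 6 neutrophil markers was 5.50 to 35.3 CPM in Runx3_fl and 148 to 369 CPM in Runx3. The pair itself differed between classes of Runx3, here without thinning and at unlike depth. Mean UMIs of the pair per cell were 3.26 in cells with Csf3r, at least 10 S100a8 UMIs and no Csf1r. They were 5.41 in B cells, 12.1 in T cells and 41.4 in cDC. The medians were 1, 1, 2 and 6, at median depths of 5034, 5460, 7261 and 11407 UMIs. In cells with no S100a8 or S100a9 UMI the log2 ratio of the pair was 2.31 (cDC) to 4.89 (plasma cells) over the 7 classes, with as few as 11 such cells (plasma cells of Runx3), a choice made after the data were seen. The cells with Csf3r, at least 10 S100a8 UMIs and no Csf1r, 280 and 231 in number, could also meet other gates. They had 61.0 CPM of the pair in Runx3_fl and 337 in Runx3, a log2 ratio of 2.45. In the 258 and 206 of them that met no other gate the ratio was 1.65. The part of free RNA in the library difference was not tested.

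Cells that held the pair also held more of several other chaperone RNAs. Within each class and library, cells with a thinned UMI of the pair were set beside cells without one, at equal depth, where both sides had at least 20 cells (12 of 14 class and library sets). Hsph1, the HSP110 exchange factor, led: in T cells of Runx3 it was at 74.3 CPM in cells without and 495 in cells with the pair, a log2 difference of 2.72 (2.14 to 3.39), and in T cells of Runx3_fl at 109 and 224. Its interval lay above 0 in 9 of 10 sets with enough UMIs, with a median difference of 1.97. Dnajb1, the J-protein partner of inducible HSP70, was above 0 in 8 of 11 sets with a median of 1.34, and Bag3, which links HSP70 to autophagy, in 6 of 9 with a median of 1.22.

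Some abundant members of the cytosolic, ER and mitochondrial sets were also higher in cells with the pair, and others were not. Hsp90aa1, the stress-inducible HSP90, was higher in cells with the pair in 12 of 12 sets (median 1.29), Hsp90ab1, the constitutive HSP90, in 11 of 12 (0.76), the J-protein Dnaja1 in 11 of 12 (0.84) and Hspa8, the constitutive HSP70, in 10 of 12 (0.60). The mitochondrial chaperonin genes Hspd1 and Hspe1 were higher in 7 of 11 and 7 of 12 sets, and the ER chaperones Hspa5 and Hsp90b1 in 8 of 12 and 5 of 12, with smaller medians of 0.21 and 0.23. Of the J-proteins Dnajb6, Dnajc7 and Dnajb4 and the HSP70-HSP90 adaptor Stip1, none had an interval above 0 in any of 9 to 11 sets. Hspa9, Dnaja2 and Hspa4 were each above 0 in 1 of 11 sets, with medians of -0.17, -0.070 and 0.13. Intervals lay below 0 in 5 cytosolic, 3 ER and 0 mitochondrial comparisons, against 4391 of 68714 for genes outside the members. By compartment the interval lay above 0 in 78 of 211 cytosolic, 21 of 75 ER and 15 of 36 mitochondrial comparisons, against 8.43% of 69044 comparisons over all genes with at least 20 UMIs. Intervals narrow with abundance, and among genes with at least 200 UMIs the counts were 47 of 82, 16 of 32 and 10 of 16, against 13.6% of all. Cells of a class can differ in subtype, whose part was not tested.

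**Figure D3:**
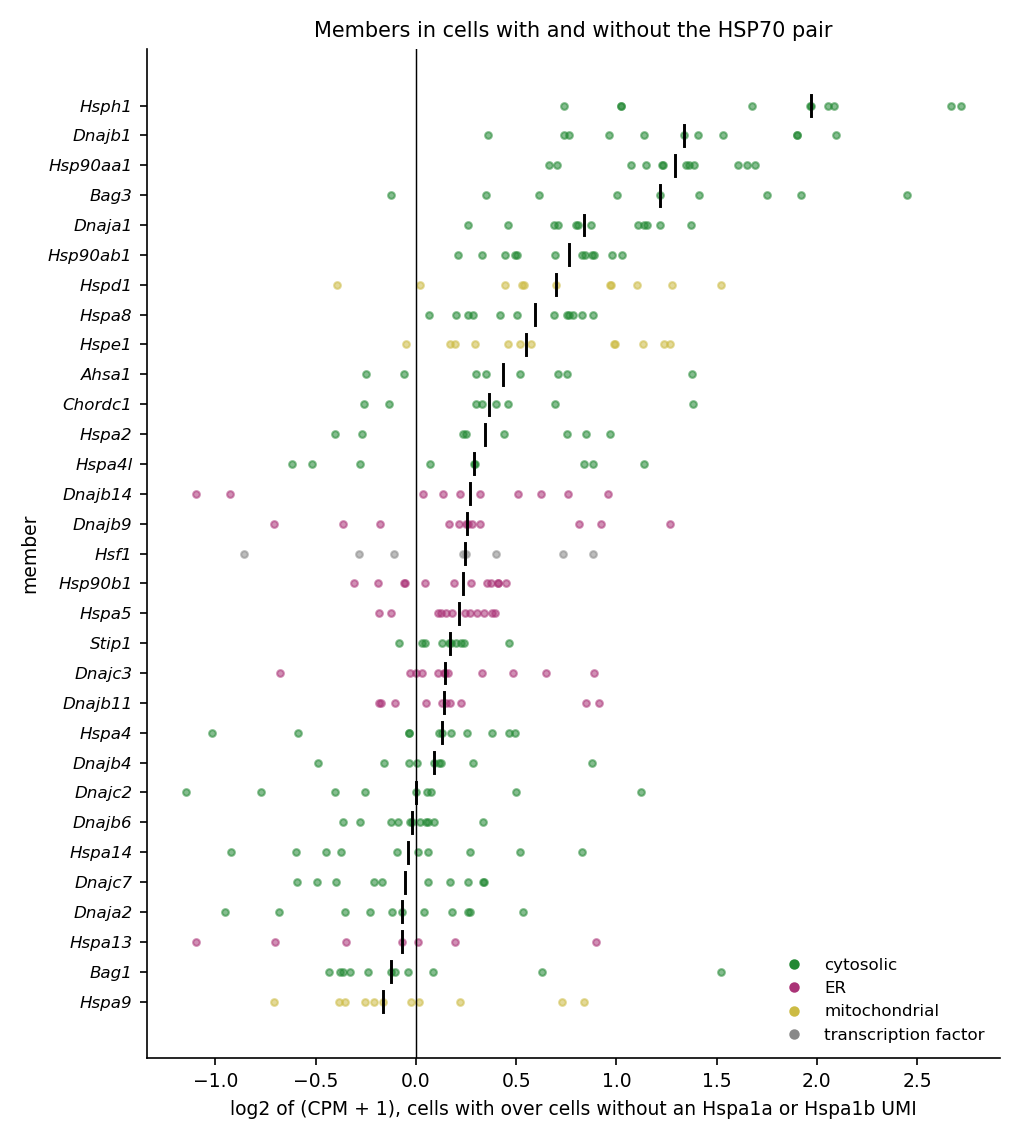
Log2 difference of each member between cells with and cells without a UMI of the Hspa1a/b pair (thinned to 2000 UMIs per cell); each point is 1 class in 1 library, the bar is the median, and members with at least 6 sets are shown. Hsph1 (median 1.97), Dnajb1 (1.34) and Hsp90aa1 (1.29) stand at the top, and Dnajb6 lies around 0.

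Over the 7 classes 234 of the 252 combinations of a unit and a class passed the filter. Of these 28 were at least 2-fold higher in Runx3, where 6.92% of all gene and class combinations were, and 13 were at least 2-fold lower, where 7.55% were. The 18 that failed were mostly Hspb1 and Dnaja3, which failed in all classes except plasma cells, and Dnaja4. Cytosolic units gave 25 of the higher and 5 of the lower ones among 156, ER units 3 and 5 among 49, and mitochondrial units 0 and 3 among 22. The pair alone accounted for 7 of the 28. The median log2 ratio of a class, taken over the classes, was 0.24 for cytosolic, -0.17 for ER and 0.38 for mitochondrial units. Without the pair the cytosolic value was 0.12. These values include the shift of all genes of a class. With the median ratio of all genes taken off and the pair kept, they were 0.10 for cytosolic, -0.25 for ER and 0.23 for mitochondrial units. After the median ratio of all genes of a class was taken off, 30 combinations were higher (background 6.79%) and 6 lower (4.9%).

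Class by class the counts were small. In macrophages 4 of 33 units that passed were at least 2-fold higher (background 9.56%) and 0 lower (3.1%), in cDC 4 of 33 (6.06%) and 0 (1.45%), in the Csf3r class 3 of 33 (9.32%) and 0 (3.02%), in NK cells 3 of 34 (4.11%) and 0 (1.12%), and in B cells 2 of 33 (2.57%) and 0 (2.61%). T cells had the most, 9 of 34 higher (11.2%) and 1 lower (8.89%). The make-up of the T class also differed, with the cytotoxic gene Gzma at 1782 CPM in Runx3_fl and 120 in Runx3 and Cd28 at 1287 and 499, and that of the cDC class, with Xcr1 at 89.5 and 14.6 and Cd209a at 49.8 and 184. The part of make-up in the ratios was not tested. Plasma cells had 3 higher (5.28%) and 12 lower (35.2%) of 34. Shares near the background, as in macrophages and the Csf3r class, say nothing of the family beyond its named members.

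**Figure D4:**
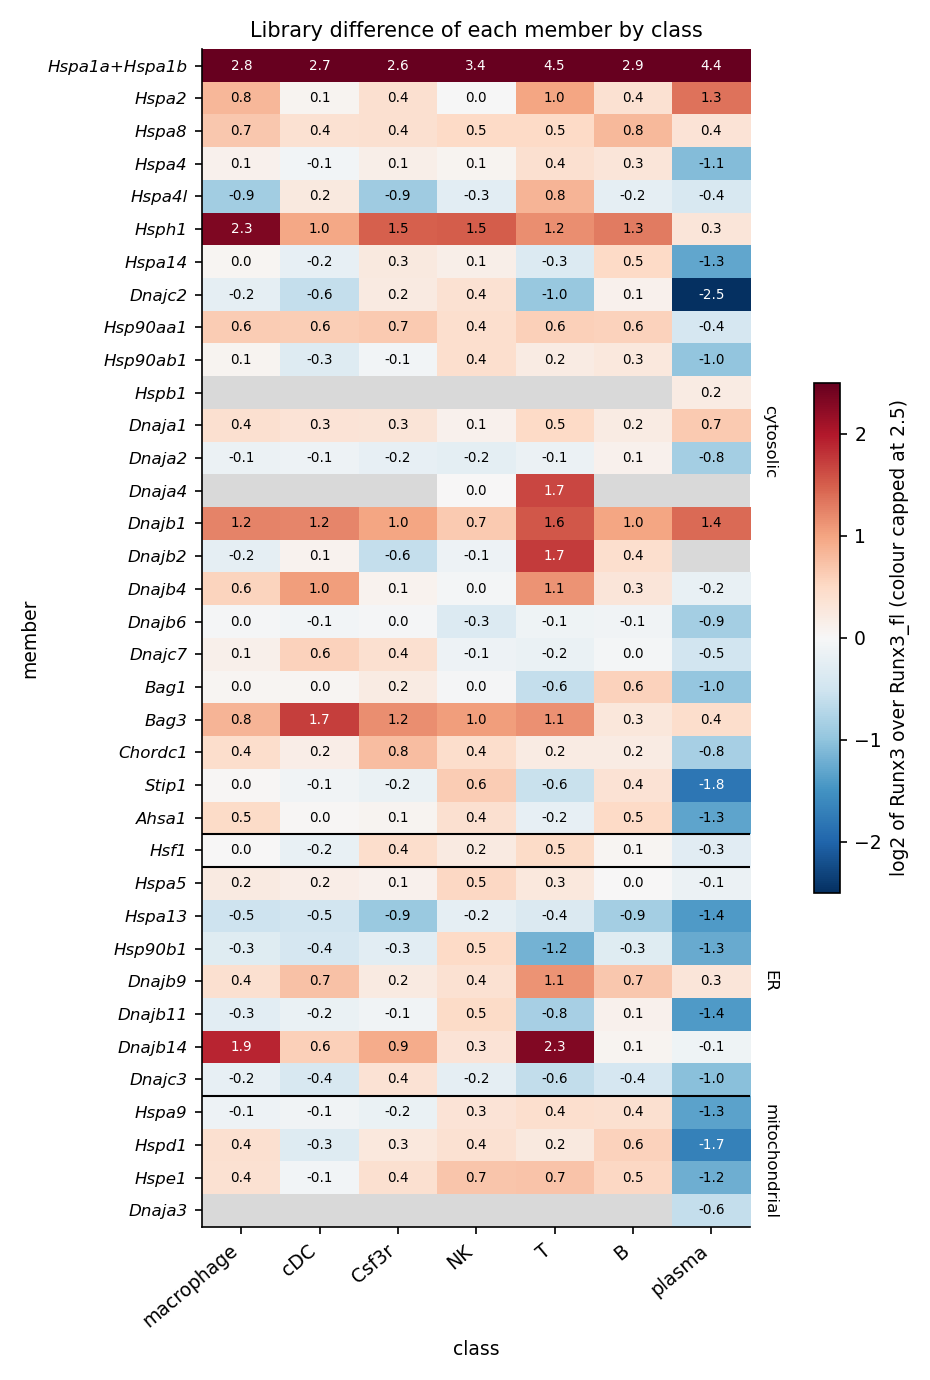
Log2 ratio of Runx3 over Runx3_fl for the 36 units (rows, ordered by cytosol, Hsf1, ER and mitochondrion) in the 7 classes (columns), with colour capped at 2.5 and grey where the level filter failed. The pair reaches 4.5 in T cells, Hsph1, Dnajb1 and Bag3 stay above 0 in every class, and the plasma column is mostly below 0.

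Hsph1 came next among the cytosolic members by the number of classes in which it was at least 2-fold higher, 5 of 7. In T cells, cDC and plasma cells members other than the pair had larger ratios. Hsph1 stood at 30.3 CPM in macrophages of Runx3_fl and 157 in those of Runx3, a log2 ratio of 2.33 (2.04 to 2.71). In NK cells it went from 60.8 to 175 CPM (1.51), in the Csf3r class from 31.4 to 89.7 (1.49), in B cells from 127 to 315 (1.30) and in T cells from 130 to 294 (1.17). It was short of 2-fold in cDC, with 103 and 204 CPM, and in plasma cells, with 108 and 135.

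Dnajb1 and Bag3 were each at least 2-fold higher in 4 classes. Dnajb1 was at 66.1 CPM in T cells of Runx3_fl and 196 in those of Runx3 (log2 1.55), and its smallest ratio, in NK cells, was 0.66. Bag3 was at 21.8 and 74.9 CPM in cDC (1.74) and its ratio in B cells was 0.28, with an interval of -0.48 to 1.18 that included 0. Its level in macrophages was at least 2-fold above the median of the other classes in both libraries, with 47.3 CPM against a median of 20.1 in the other classes of Runx3_fl and 85.7 against 39.9 in Runx3. The gene overlaps 2610306O10Rik on the same strand, so some of its reads may be shared.

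The other J-proteins split. Dnajb4 was at least 2-fold higher in cDC (10.4 to 22.5 CPM) and T cells (34.5 to 76.5), and in NK cells, where it was highest in both libraries, it stood at 181 and 176 CPM. Dnaja4, from 7.76 to 26.8 CPM, and Dnajb2, from 4.43 to 17.2 CPM, were at least 2-fold higher in T cells alone among the classes they passed in, which were 2 and 6. Dnaja1 had a ratio above 0 in 7 of 7 classes but below 2-fold, 0.11 to 0.66. Dnajb6, a J-protein that holds back protein aggregates, had a ratio below 0 in 7 of 7 classes, -0.85 in plasma cells and -0.34 to -0.028 in the rest.

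The constitutive HSP70 Hspa8 was higher in Runx3 in 7 of 7 classes by less than 2-fold. It stood at 878 CPM in B cells of Runx3_fl and 1551 in those of Runx3 (log2 0.82), and at 1850 and 2410 in cDC (0.38). The exchange factor Hspa4 had ratios of -0.068 to 0.40 in 6 classes, and in plasma cells it stood at 170 and 79.8 CPM (-1.08). Its relative Hspa4l differed by class, with 81.8 and 44.0 CPM in the Csf3r class (log2 -0.88) and 52.9 and 95.8 CPM in T cells (0.84). Hspa2 was at least 2-fold higher in plasma cells only, 14.7 against 38.9 CPM, and at 12.5 and 25.9 CPM in T cells.

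Both HSP90 genes stayed under 2-fold everywhere. Hsp90aa1 was higher in Runx3 in 6 of 7 classes with ratios of 0.43 to 0.66, and in plasma cells it stood at 1220 CPM in Runx3_fl and 914 in Runx3 (-0.42). That sign turned to 0.087 with abundant genes left out of the total, 0.30 after centring and 0.034 with a gate of at least 1 Jchain UMI. Hsp90ab1 had ratios of -0.99 (plasma cells) to 0.43 (NK cells). Among co-chaperones of HSP90, Chordc1 ranged from -0.83 in plasma cells to 0.78 in the Csf3r class, and Ahsa1, which speeds the HSP90 ATPase, from -1.32 in plasma cells to 0.50 in B cells. Stip1 stood at 45.9 and 71.8 CPM in NK cells (0.63), and at 86.5 and 58.4 CPM in T cells (-0.56). Bag1 stood at 127 and 83.7 CPM in T cells (-0.60) and at 38.1 and 57.7 CPM in B cells (0.58).

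Hsf1 itself was not at least 2-fold different in any class, with ratios of -0.29 to 0.47. Its level was highest in B cells, at 57.7 CPM against a median of 20.5 in the other classes of Runx3_fl and 59.9 against 19.4 in Runx3. HSF1 is set in motion at the protein level, which RNA counts do not show. Hspa14 and Dnajc2, which work on chains leaving the ribosome, had median ratios of 0.044 and -0.22 over the classes. Dnajc2 was lower in T cells, from 99.0 to 50.6 CPM (-0.95), and in plasma cells, from 87.8 to 14.5 CPM (-2.52).

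The ER chaperones did not follow the pair as a group. Their median log2 ratio in a class ran from -1.04 in plasma cells to 0.39 in NK cells, against -0.71 and 0.047 for all genes tested there. Hspa5 (BiP), the ER HSP70, stood at 1254 CPM in T cells of Runx3_fl and 1512 in those of Runx3 (0.27) and at 1376 and 1535 in cDC (0.16). Hsp90b1 (GRP94), the ER HSP90, was lower in Runx3 in 6 of 7 classes, at 661 and 292 CPM in T cells (-1.17) and 355 and 502 CPM in NK cells (0.50). Hspa13 was lower in 7 of 7 classes, from -1.41 in plasma cells to -0.22 in NK cells.

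Of the ER J-proteins, Dnajb9, a target of the unfolded protein response, was higher in 7 of 7 classes, at 68.2 and 149 CPM in T cells (1.12) and between 0.23 and 0.74 elsewhere. Dnajb14 was at 7.90 and 43.1 CPM in T cells (2.31) and 29.7 and 114 CPM in macrophages (1.91), but it overlaps Gm43088 and Gm15460 on the same strand and its counts are uncertain. Hsp90b1 (Gm15344 and Gm25745) and Hspa13 (Gm15553) also overlap other genes on the same strand. So do Hspa8, Hspa9, Hspa14, Ahsa1, Dnaja1, Dnaja3 and Dnaja4, and the effect on their counts was not tested. Dnajb11 and Dnajc3 were lower in T cells, at 105 and 58.7 CPM (-0.82) and 150 and 97.7 CPM (-0.61).

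The mitochondrial members also stayed under 2-fold outside plasma cells. Hspe1, the cap of the chaperonin, had its largest ratio in T cells, 243 against 399 CPM (0.71), and Hspd1, the chaperonin ring, in B cells, 196 against 293 CPM (0.58). In cDC both were below 0, at -0.067 and -0.32. Hspa9, the mitochondrial HSP70, ran from -0.17 to 0.42 outside plasma cells. Their class median ran from -1.28 in plasma cells to 0.53 in B cells, beside -0.71 and 0.034 for all genes.

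Plasma cells stood apart in the ER set within each library, whatever the difference between libraries. Hsp90b1 was at 6912 CPM in plasma cells of Runx3_fl, against a median of 443 over the other 6 classes (log2 3.96), and at 2882 against 348 in Runx3 (3.05). Dnajb11, which hands clients to BiP, was at 330 against 69.2 CPM and at 123 against 60.0 (2.24 and 1.03). These were 2 of 7 ER units at least 2-fold higher in plasma cells in both libraries, where 3.85% of all 8052 genes tested were, and 0 of 22 cytosolic and 0 of 3 mitochondrial units were. Dnajc3 missed that mark in Runx3 alone, at 365 against 119 CPM in Runx3_fl and 177 against 92.8 in Runx3. The median ER unit stood at 1.30 and 0.46 on this log2 scale, and the median of all genes at -0.23 and -1.03. Dnajb6 and Dnajb14 were at least 2-fold lower in both libraries, where 22.8% of genes were. With abundant genes, immunoglobulin among them, left out of the total, 5 of 7 ER units were at least 2-fold higher in both libraries (10.7% of all genes), namely Hsp90b1, Dnajb11, Dnajc3, Hspa13 and Hspa5, and no unit was lower (12.5%).

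**Figure D5:**
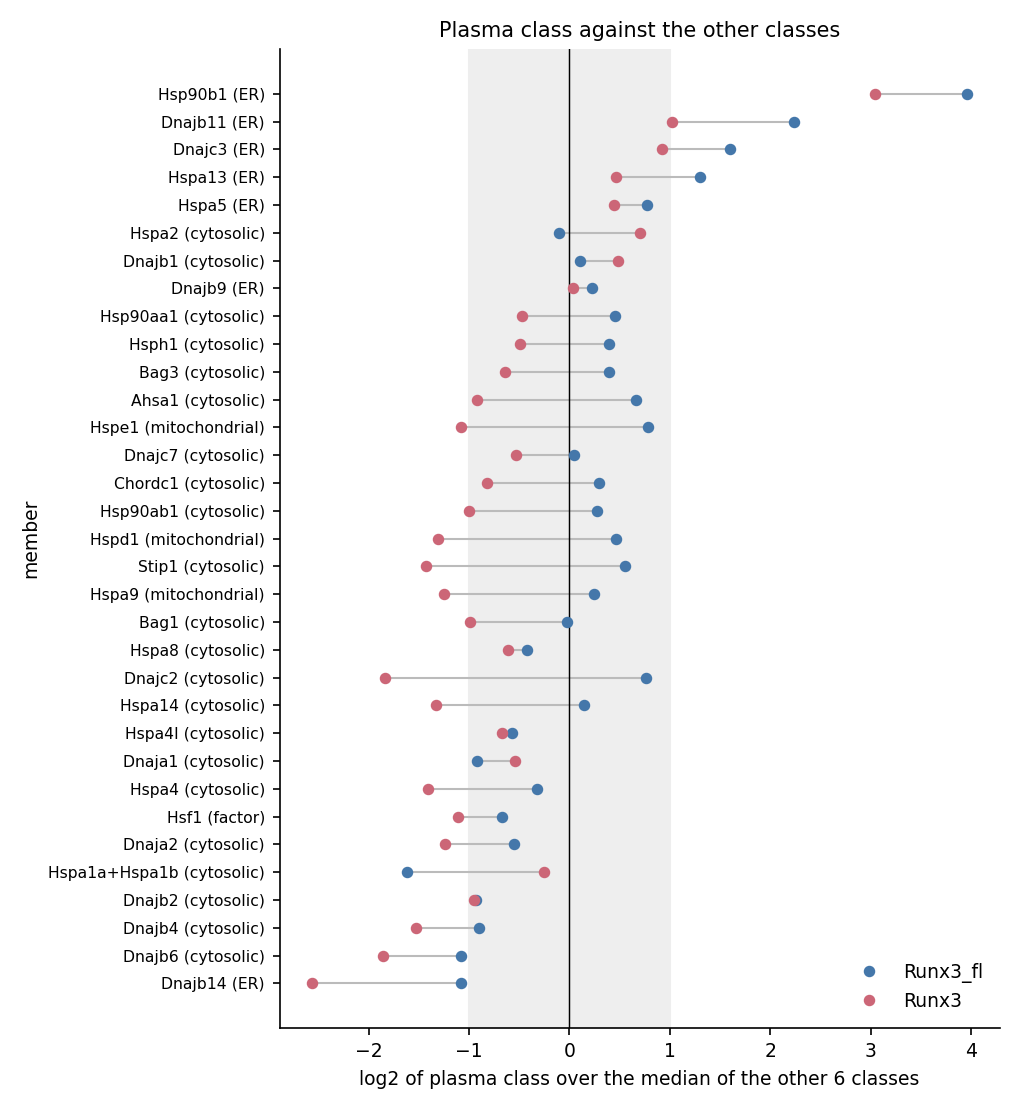
Log2 level of each member in plasma cells over the median of the other 6 classes in Runx3_fl and in Runx3, with the range under 2-fold shaded. Members are ordered by the mean of both libraries; Hsp90b1, at 3.96 and 3.05, and Dnajb11 lead in each library, while the order below Dnajc3 differs between them.

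The plasma class also carried most of the lower calls between libraries, and its base level moved. Immunoglobulin and Jchain RNA made up 16.8% of its UMIs in Runx3_fl and 45.4% in Runx3, and the median gene had a ratio of -0.71. Immunoglobulin, mitochondrial, ribosomal protein and haemoglobin genes were then left out of the total. Of 35 units 3 were at least 2-fold lower, rather than 12 of 34, and 4 rather than 3 were higher. The median gene then had a ratio of -0.18, and the share of all genes at least 2-fold apart was not counted on that scale. On that scale Hsp90b1 was at -0.76, Hspd1 at -1.20, Dnajc2 at -2.06, Stip1 at -1.33 and the pair at 4.96. With at least 1 Jchain UMI as the gate, Hsp90b1 was at -1.88, Dnajc2 at -1.05, Stip1 at -0.86, Hspd1 at -0.44 and Hspa4 at -0.062, so the differences of the last 3 reached 2-fold only with the stricter gate.

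A few members stood apart in other classes in both libraries. The pair was at least 2-fold above the median of the other classes in cDC (log2 2.48 in Runx3_fl and 1.20 in Runx3) and below it in NK cells (67.2 against 207 CPM, and 726 against 1765). Dnajb4 was higher in NK cells, at 181 against 34.6 CPM and 176 against 44.8, and lower in cDC. Hsph1 was lower in the Csf3r class, at 31.4 against 106 CPM in Runx3_fl and 89.7 against 190 in Runx3, as was Hspd1, at 67.7 against 213 and 81.6 against 215. Dnajb14 was higher in cDC and the Csf3r class, Hspa13 lower in B cells, and T cells had no member at least 2-fold apart in both libraries. In all 8 combinations were higher and 7 lower, with 33 units tested in each of the 7 classes. No class had more than 2 of its 33 units in either direction. Of all genes, 10.5% were higher and 4.74% lower in macrophages, 8.88% and 3.7% in cDC, 11.2% and 4.82% in the Csf3r class, and 8.23% and 9.9% in NK cells. The shares were 6.94% and 6.53% in T cells, 9.76% and 6.68% in B cells, and 3.85% and 22.8% in plasma cells. Counts this small beside these shares say nothing of the family beyond its named members.

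Over the 14 class and library sums the levels most like that of the pair by Pearson correlation were those of Bag3 (Pearson 0.74, Spearman 0.69) and Hspa8 (0.73 and 0.66), followed by Dnajb14 (0.70 and 0.67). By Spearman correlation Dnajb9 came first, at 0.71 (Pearson 0.64). Over the 7 class ratios instead, Hspa2 (0.70 and 0.43) and Dnajb2 (0.69 and 0.75) were most like it and Bag3 was not (-0.27 and -0.43). These points share libraries and cells, so the values are descriptions.

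Lists of neighbouring genes placed the members in context. Of 13 other heat shock response genes, 21 of 70 gene and class combinations that passed were at least 2-fold higher in Runx3 and 1 lower, against 6.92% and 7.55% of all. They included Hmox1, which breaks down haem under oxidative stress, at 60.0 and 244 CPM in macrophages (2.01). Zfand2a, a heat and arsenite responder, was at 37.6 and 93.8 CPM there, and Dedd2 at 27.5 and 79.4. Immediate early genes, switched on soon after a signal or tissue handling, gave 43 of 91 combinations higher and 0 lower. Jun was at 84.3 and 456 CPM in macrophages (2.42) and at 49.2 and 313 CPM in T cells (2.65), and Egr1 at 22.7 and 289 CPM in plasma cells (3.61). The part of tissue handling in these differences was not tested.

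The other folding lists gave few higher combinations. The TRiC and prefoldin subunits, which fold actin and tubulin, gave 0 of 98 higher and 11 lower, 10 of the latter in plasma cells. ER folding and unfolded protein response genes gave 1 of 98 higher and 10 lower. Other HSP90 co-chaperones gave 4 of 70 higher and 4 lower, and nucleotide exchange factors 1 of 50 and 3. Over all genes and classes 6.92% were higher and 7.55% lower, and in plasma cells 35.2% were lower. Plasma cells held 7 of the 10 lower ER folding combinations. They held all lower ones of the HSP90 co-chaperones and nucleotide exchange factors.

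Heat shock elements were counted in RefSeq promoter windows of 300 bases (250 before and 50 after the start, GRCm38.p6), which held 30 of the 37 members. The strict element of 3 inverted units, GAA and TTC in turn with any 2 bases between neighbours, starting with either and on either strand, was found for Hsph1, Dnajb6, Chordc1, Hspd1 and Hspe1, 5 of 30, and for 179 of 27025 genes in the table, 0.662%. The shorter element of 2 such units, contained in the strict element, was found for 12 of 30 members and for 17% of all genes: 10 of 21 cytosolic, 2 of 3 mitochondrial and 0 of 6 ER members. The stretches with strict elements are shown, in capitals, because carriers did not share one behaviour. Hsph1 was at least 2-fold higher in 5 classes and Dnajb6 in 0. Hspd1 and Hspe1 lie head to head, and the same bases serve as element for both.

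Hsph1, chr5:149636287-149636308, minus strand: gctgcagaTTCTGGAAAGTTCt
Dnajb6, chr5:29735844-29735872, plus strand: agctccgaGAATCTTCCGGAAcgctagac
Chordc1, chr9:18292260-18292288, plus strand: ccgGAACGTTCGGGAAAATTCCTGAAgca
Hspe1, chr1:55088053-55088082, plus strand: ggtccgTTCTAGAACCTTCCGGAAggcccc

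A match is only a run of letters, and the absence of one, as in the Hspa1a and Hspa1b windows for the strict element, says nothing of HSF1 there.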

How the data were processed

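UMI counts per gene and cell were deposited by the authors as 2 filtered 10x matrices made with Cell Ranger 7.1.0 (file header), and mm10 and Seurat 4 are named in the submitters' processing notes. The counts were whole numbers and showed no normalization. Background RNA removal was not given in the sources used here. Kept cells had 200 to 6000 genes and at most 15% mitochondrial UMIs. No doublet caller was run, and cells meeting several gates (1181 and 1603) or no gate (3655 and 2629) were left out of the classes. Counts were summed per class and library and divided by the class total. Log2 ratios used CPM plus 1, and their 95% intervals came from the exact conditional binomial of the raw counts, without the added 1. With 1 library per group no test was possible and no p-value is given, and a combination was counted as higher or lower at 2-fold when its mean reached 10 CPM and its UMIs 20. All 37 members were named, and of each other list at most the 3 genes with the largest ratio in macrophages, with Jun and Egr1 also shown in a class chosen after their values were seen. Members and lists were chosen with earlier results of these data known. Of 32285 gene IDs, 32158 were in GENCODE M21, and promoters came from RefSeq on GRCm38.p6. Alternatives covered gates, cell filters, denominators, pseudocounts, level filters and thinning. The share of all genes in the comparison of cells with and without the pair was added after the data were seen. The summing and ratio code was tested on simulated data. Scripts ran in Python 3.11.15 with scipy 1.17.1 for the intervals, numpy 2.4.6 and pandas 2.3.3 for the sums, and matplotlib 3.10.9 for the plots. Library totals were 146204416 UMIs in Runx3_fl and 75478164 in Runx3.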

Additional observations from a re-analysis of the deposited data

Results flagged for a closer look

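Plasma cells were left out of this search. In the other classes 4 members lay at least 0.5 log2 units above the median gene in some class and as far below it in another. Their ratios were of opposite sign, with each interval clear of 0 and of that median. Members with smaller differences of opposite sign are not listed, and the difference between the classes was not tested. The log2 ratio of Hspa4l was 0.84 in T cells and -0.88 in the Csf3r class. That of Dnajb2 was 1.74 in T cells and -0.60 in the Csf3r class. Bag1 stood at 0.58 in B cells and -0.60 in T cells, and Stip1 at 0.63 in NK cells and -0.56 in T cells.

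Cells outside the classes also held the Hspa1a/b pair. In Runx3 the pair stood at 1688 CPM in the cells removed by the filters, against 163 CPM in Runx3_fl. Cells that met no gate stood at 2352 CPM, against 239, and cells that met several gates at 2313 CPM, against 248.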

How the results depend on the processing

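No paired analysis was possible because each group is 1 library and the labels give no replicate numbers, so no replicate could be left out either. The pair stayed higher in Runx3 in every class under the 12 settings tried for it, while the ER median changed sign under 1 setting, and the cause of each change was not tested. The smallest Hspa1a/b log2 ratio over the classes, 2.59, became 2.51 with at least 2 UMIs of each gate gene, 2.53 with several gates allowed, 2.37 with at most 4000 genes per cell, 2.49 as the mean of per-cell CPM and 2.37 after centring. With gates chosen after seeing the data it became 1.65 when the Csf3r class was cut to cells with at least 10 S100a8 UMIs, no Csf1r and no other gate met (258 and 206 cells; 2.45 in the 280 and 231 cells that could meet other gates), and 2.31 in cells without S100a8 or S100a9. The 13 lower combinations became 7 with at least 1 Jchain UMI for plasma cells, 8 with at most 4000 genes, 4 without abundant genes in the total and 6 after centring. The higher ones stayed between 21 and 35. The ER median of -0.17 became 0.039 with at least 2 gate UMIs and -0.44 with several gates, and the mitochondrial median of 0.38 became 0.14 with several gates and 0.56 in cells without S100a8 or S100a9. The class differences, 8 higher and 7 lower, became 2 and 2 with several gates, and the lower ones 4 with at most 4000 genes and 4 with a pseudocount of 10 CPM.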

Other observations

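Groups of cells with further markers gave these levels of the Hspa1a/b pair, with no test. Cells that also met the gate of another class were not left out here, so the groups are not strict parts of the classes above. Cells with CD8 T cell markers stood at 72.2 CPM in Runx3_fl and 1688 in Runx3, and CD4 T cells at 87.9 and 1426. T cells with Foxp3, the factor of regulatory T cells, numbered 38 and 60 and stood at 43.3 and 1541 CPM, the widest of these ratios at 5.12 on the log2 scale. Migratory dendritic cells had the narrowest, 1.80, with 517 and 1805 CPM, while cDC1 stood at 534 and 3484 and monocytes at 339 and 2529.

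The 13 genes at least 2-fold higher in Runx3 in every class were the neutrophil genes Ngp, S100a8 and S100a9, the pair Hspa1a and Hspa1b, the antibody genes Igha and Jchain, the interferon-induced genes Slfn4, Irf7, Ifi27l2a and Bst2, and Nkain2 and Cdk8. The smallest log2 ratio over the classes was 4.05 for Ngp and 3.92 for Nkain2.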
